A study of Mus musculus with 4 samples.

Results

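RNA sequencing data of mouse neural progenitor cells (NPCs) were examined for 33 genes of cholesterol and fatty acid synthesis and of the machinery that sets their expression. The genes were chosen by name from known biochemistry, although earlier results of these data were known by then. They are 7 genes of the mevalonate pathway, 11 that make squalene and carry it to cholesterol and 4 controls of the Srebp factors. The others are 3 genes of fatty acid synthesis, 6 of fatty acid desaturation and elongation and 2 of cholesterol transport. All 33 were found among the 21862 genes that occurred once in each library, and all 33 had a value above 2 FPKM in each of the 4 libraries, as did 10489 genes in all. FPKM is the number of reads on a gene scaled to transcript length and to the mapped reads of the library, so that levels of different genes can be set side by side.

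The cells were N31 NPCs, a single mouse line obtained by taking ES cells to NPCs, reprogramming these to iPSCs and differentiating them again. Every library carries that history, with Dox-inducible reprogramming factors under a ubiquitous rtTA and a blasticidin cassette at Oct4. The control groups were N31 NPCs, and the Srf-knockdown groups were N31 NPCs given shSrf#1, a short hairpin RNA against Srf, by retrovirus. Whether the controls carried a control vector is not given in the sources used here. Both populations were cultured without EGF and bFGF on matrices coated with type I collagen, of a stiffness of 0.5 kPa, which is near that of brain, or 12 kPa. The study asked whether a stiff substrate acts through Srf on the genes a cell type expresses. With 1 library for each of the 4 conditions there is no error between replicates and no test, and differences are given with their counting error, which covers the sampling of reads but not culture or library preparation.

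Cholesterol and fatty acids are both built from acetyl-CoA in the cytosol. The Srebp transcription factors are made as membrane proteins of the endoplasmic reticulum, and when sterols are scarce Scap escorts them to the Golgi, where they are cut and released to the nucleus, whereas with ample sterols Insig proteins hold the complex back. Srebp2 mainly drives the cholesterol genes and Srebp1c the fatty acid genes, often next to the factor NF-Y, and the brain makes its own cholesterol because lipoproteins do not cross the blood-brain barrier. Srf, with its actin-sensitive partner Mkl1, binds the CArG box of cytoskeletal genes.

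The promoter letters through which these factors are known to act were looked up in RefSeq sequences on GRCm38.p6, in windows from 250 bases before to 50 bases after a transcription start, on both strands. Windows were given for 26 of the 33 members, and those of Fdps, Fdft1, Sqle, Scd1, Scd2, Fads1 and Npc1 were not analysed here. The window of Acaca (chromosome 11, 84195188 to 84195487) lay inside its annotated gene (84129635 to 84401651) and not at its outer end. A gene was counted if any of its windows held the letters. CCAAT, the NF-Y box, was found in 20 of the 26 (76.9%), compared with 41.1% of 27025 genes in the same table. Those genes were not limited to the ones above 2 FPKM, as all members were, so the 2 sets are unlike in expression. CACGTG, an E-box that reads the same on both strands, was found in 7 of the 26 (26.9%; Hsd17b7, Sc5d, Dhcr7, Insig1, Scap, Elovl5 and Abca1), compared with 8.09%. TCACNCCAC, the letters of a sterol regulatory element, was found in 1 of the 26 (Hmgcs1) and in 1.44% of all genes, and a CArG box in 0 of the 26 and in 1.81%. Such a match is a description of the letters in a window and not a binding site. Only the stated letters were searched, so an element spelled otherwise would be missed. The 250 bases before the start are shown for Hmgcs1, which has both the sterol element and NF-Y boxes, for Nsdhl, Ebp and Fasn, 3 of the 4 members higher by more than 1.5-fold in Srf-knockdown NPCs at both stiffnesses, and for Idi1 and Elovl5, which were lower in them and were chosen for display after their values were seen. Sequences read 5′ to 3′ on the strand of the gene, and capitals mark TCACNCCAC and CCAAT on either strand, so that CCAAT on the other strand reads ATTGG.
Hmgcs1 (chr13:119690101-119690350, plus strand): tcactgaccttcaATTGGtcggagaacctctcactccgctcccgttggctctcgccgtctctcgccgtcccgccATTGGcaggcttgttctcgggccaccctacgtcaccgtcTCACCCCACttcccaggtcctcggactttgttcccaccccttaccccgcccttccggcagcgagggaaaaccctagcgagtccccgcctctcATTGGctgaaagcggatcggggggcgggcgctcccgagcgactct
Nsdhl (chrX:72918271-72918520, plus strand): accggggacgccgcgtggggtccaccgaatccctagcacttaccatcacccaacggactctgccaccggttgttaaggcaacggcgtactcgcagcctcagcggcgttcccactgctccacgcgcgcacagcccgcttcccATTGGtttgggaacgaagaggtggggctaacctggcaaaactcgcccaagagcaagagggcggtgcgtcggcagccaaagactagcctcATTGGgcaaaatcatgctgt
Ebp (chrX:8193513-8193762, minus strand): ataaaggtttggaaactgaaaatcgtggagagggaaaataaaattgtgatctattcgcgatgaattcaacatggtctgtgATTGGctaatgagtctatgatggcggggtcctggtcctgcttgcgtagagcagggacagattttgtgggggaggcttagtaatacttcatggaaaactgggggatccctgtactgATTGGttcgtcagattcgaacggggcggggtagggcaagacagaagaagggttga
Fasn (chr11:120824548-120824797, minus strand): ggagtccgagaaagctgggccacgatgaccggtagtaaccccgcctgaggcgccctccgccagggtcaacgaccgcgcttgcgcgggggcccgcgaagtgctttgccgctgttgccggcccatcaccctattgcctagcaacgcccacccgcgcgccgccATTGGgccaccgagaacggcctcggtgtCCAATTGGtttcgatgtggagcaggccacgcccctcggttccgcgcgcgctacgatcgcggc
Idi1 (chr13:8885356-8885605, plus strand): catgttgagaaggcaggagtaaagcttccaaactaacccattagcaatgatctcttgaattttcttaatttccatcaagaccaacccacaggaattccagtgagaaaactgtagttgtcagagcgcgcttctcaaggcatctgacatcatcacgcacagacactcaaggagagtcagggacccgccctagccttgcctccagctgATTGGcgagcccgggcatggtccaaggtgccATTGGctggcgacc
Elovl5 (chr9:77917115-77917364, plus strand): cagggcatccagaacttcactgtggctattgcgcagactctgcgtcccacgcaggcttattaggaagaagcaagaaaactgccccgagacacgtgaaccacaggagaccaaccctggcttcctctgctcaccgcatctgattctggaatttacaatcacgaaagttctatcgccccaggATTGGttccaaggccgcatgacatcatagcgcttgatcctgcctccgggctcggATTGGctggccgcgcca
In Hmgcs1 the sterol element began at position -137 from the start, and NF-Y boxes at -237, -176 and -45. NF-Y boxes began at -109 and -20 in Nsdhl and at -170 and -55 in Ebp, which were higher in Srf-knockdown NPCs, and at -45 and -14 in Idi1, which was lower. Acly, the other member higher at both stiffnesses, had no box in the bases before its start, and the 1 box in its window began at position 38 after it. In Fasn, 2 of the 3 boxes before the start overlap as a box on each strand.

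Srf itself was 34.4 and 35.6 FPKM in the control libraries at 0.5 and 12 kPa and 16.2 and 17.4 FPKM in the Srf-knockdown libraries. Its log2 ratio was -1.09 and -1.03, so that it was lower in both libraries labelled shSrf. The depth estimated from whole-read steps among low values was about 29100000 and 24100000 reads for control and 45100000 and 62300000 reads for Srf-knockdown NPCs, so the Srf-knockdown libraries were the deeper pair. At this depth each member with a matched transcript had at least 612 estimated reads in every library. Of 9 neural progenitor markers, Nes, Vim, Sox2, Pax6 and Slc1a3 were above 2 FPKM in all libraries, Fabp7 did not exceed 0.442 FPKM and Sox1, Hes5 and Olig2 were listed at 0 in all. All 6 mesenchymal markers were above 2 FPKM, with a summed level of 2817 to 3033 FPKM in control and 2408 to 2500 FPKM in Srf-knockdown libraries. Within it Acta2 (321 and 322 FPKM in control, 6.74 and 8.96 FPKM in Srf-knockdown libraries) and Tagln, both known targets of Srf, and Col1a2 were lower with knockdown, whereas Col1a1, Col3a1 and Pdgfrb were higher. The 4 adipocyte markers and the 3 hepatocyte markers, of cell types rich in these pathways, each summed to 0.164 to 0.619 FPKM. The progenitor sum, most of which was Vim, was 1563 to 1783 FPKM in control and 2433 to 2452 FPKM in Srf-knockdown libraries, with Vim, Sox2 and Pax6 higher and Nes and Slc1a3 lower in the latter. The 4 neuronal markers summed to 33.2 to 37.8 FPKM in control and 54.0 to 55.1 FPKM in Srf-knockdown libraries. Depth and the summed progenitor, mesenchymal and neuronal markers thus differed with the knockdown, the neuronal sum mainly through Map2. Their part in the ratios below was not tested. In bulk RNA, fewer cells of a type and less RNA per cell cannot be told apart.

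The members were well expressed. Their median level was 53.0 to 60.2 FPKM, compared with 21.9 to 22.1 FPKM over all included genes, and 29 of the 33 were above that median in all libraries. Scd2, which puts the first double bond into saturated fatty acids, was the highest at 414 FPKM in control NPCs at 0.5 kPa, 405 at 12 kPa, 412 in Srf-knockdown NPCs at 0.5 kPa and 397 FPKM at 12 kPa, and Abca1, which exports cholesterol from the cell, was the lowest at 3.88, 2.52, 3.82 and 4.80 FPKM in the same order, which is kept below. The highest of the 4 libraries exceeded the lowest by more than 1.5 times in 9 members (Idi1, Nsdhl, Ebp, Dhcr7, Srebf1, Acly, Fasn, Fads2 and Abca1) and by less than 1.2 times in 13. The median of this ratio was 1.30 over the members and 1.32 over all included genes, so that as a set the members varied about as much between libraries as other genes did.

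**Figure D1:**
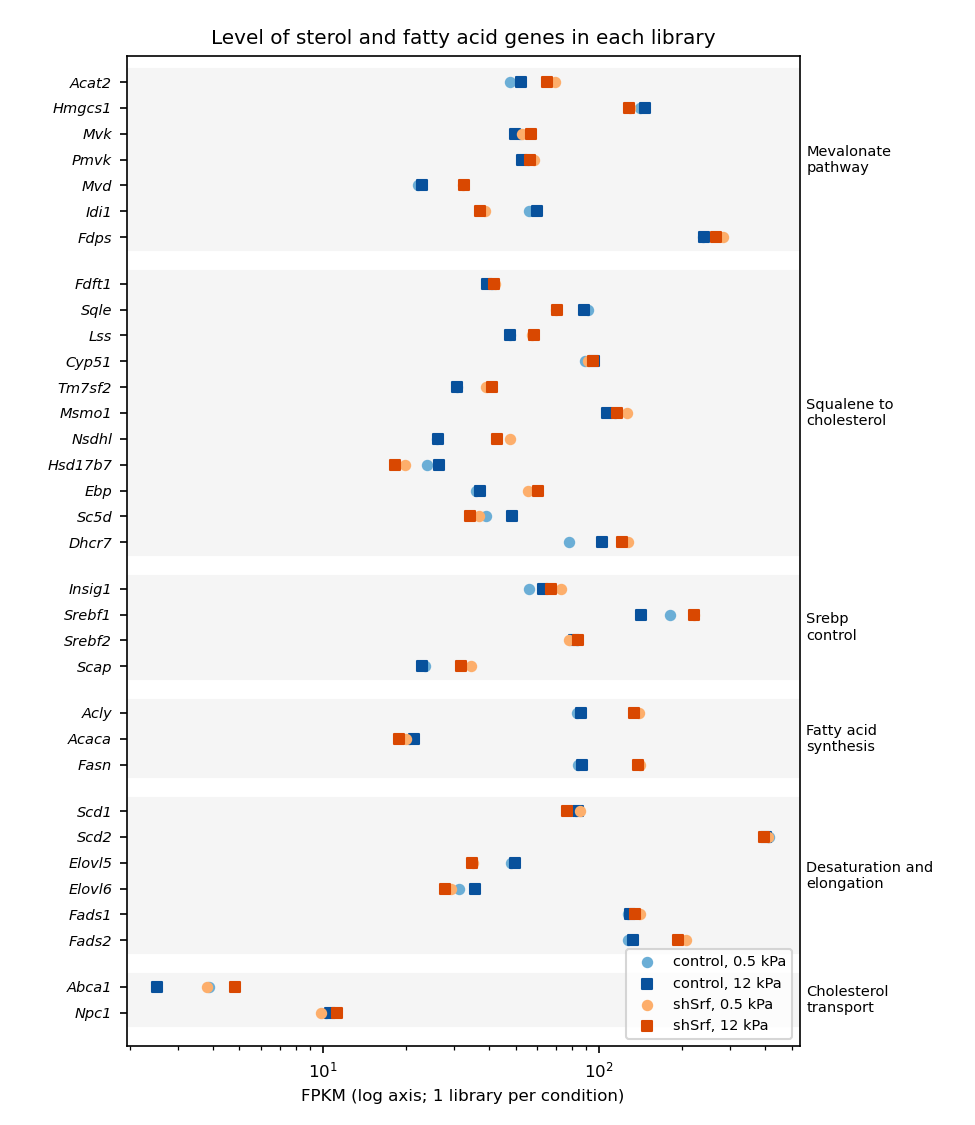
FPKM (log axis) of the 33 members in each of the 4 libraries, with 1 point per library, grouped by role. Blue points are control and orange points Srf-knockdown NPCs, circles 0.5 kPa and squares 12 kPa. The orange points lie to the right of the blue points for Nsdhl, Ebp, Acly, Fasn and Fads2 and to the left for Idi1, Sqle and Elovl5.

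The effect of Srf knockdown was examined at each stiffness. Nsdhl and Ebp of the late cholesterol pathway and Acly and Fasn of fatty acid synthesis were higher by more than 1.5-fold in Srf-knockdown NPCs at both stiffnesses, with folds between 1.55 and 1.84. No member was lower by more than 1.5-fold at both. At 0.5 kPa, 6 of the 33 members (18.2%) were higher by more than 1.5-fold, where 9.19% of the included genes were, and 0 were lower, where 9.28% were. At 12 kPa, 6 (18.2%) were higher, beside 10.2% of the included genes, and 1 (3.03%) was lower, beside 8.88%. At both stiffnesses together 4 (12.1%) were higher and 0 lower, beside 6.63% and 6.17%. With the threshold set at 1.1-fold, the one the study used for stiffness, 13 members (39.4%) were higher at both stiffnesses and 4 (12.1%) lower, beside 30.3% and 28.8% of the included genes. The median log2 ratio of the members was 0.07 at 0.5 kPa and 0.11 at 12 kPa, beside 0.01 over all included genes in each case. The ratios of the 32 members with a matched transcript were also centred on genes of like GC content. Then 4 were higher by more than 1.5-fold at 0.5 kPa and 3 at 12 kPa, with no share over all genes given. At both stiffnesses 2 of the 32 were then higher and 0 lower, beside 5.16% and 5.87% of the included genes. The comparisons at 0.5 and 12 kPa share no library. The sign was the same in both for 28 of the 33 members and for 8870 of the 10489 included genes. Across the members r was 0.81 and rho 0.84, beside 0.88 and 0.86 across all included genes, where genes are not independent replicates.

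**Figure D2:**
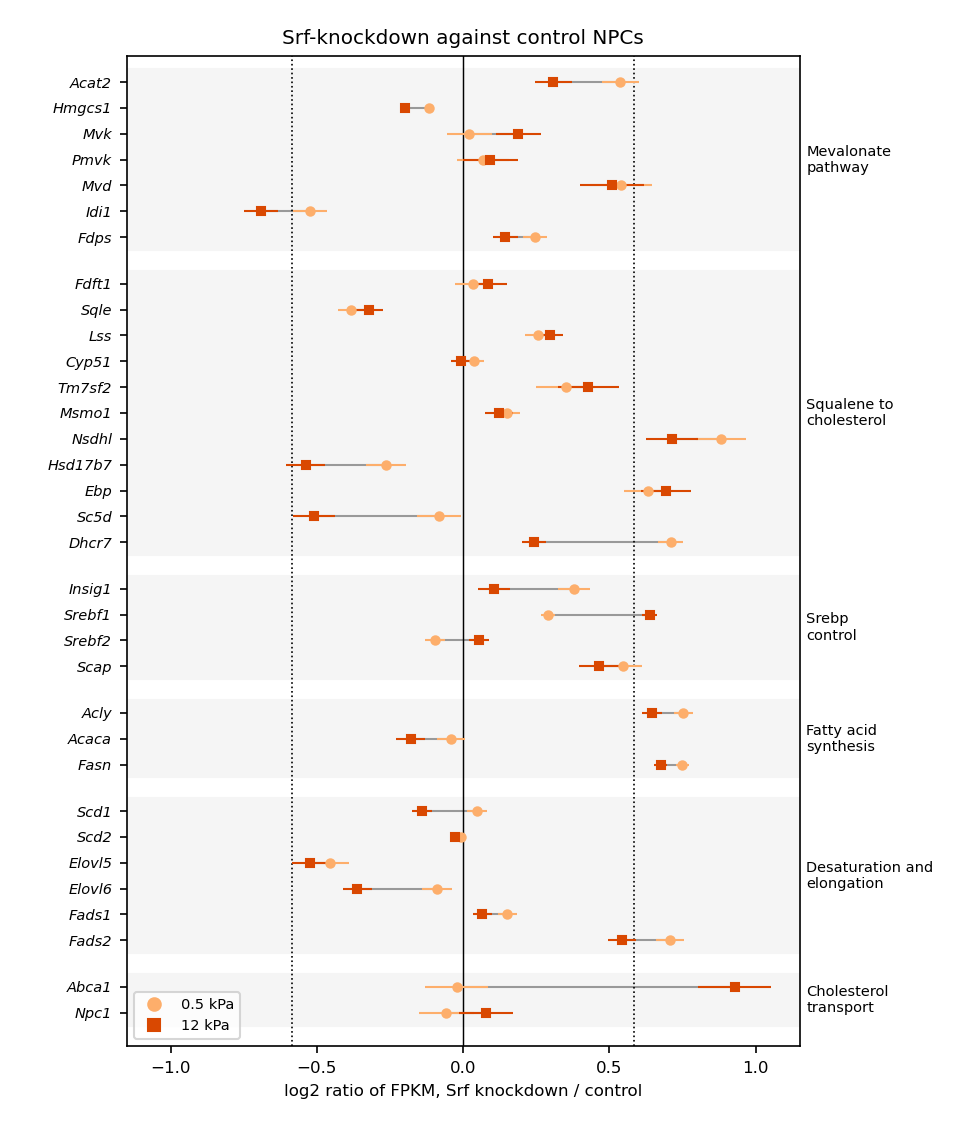
Log2 ratio of FPKM in Srf-knockdown to control NPCs for each member, at 0.5 kPa (circles) and 12 kPa (squares). Horizontal bars are 95% intervals of counting error where reads could be estimated (32 members), the grey line joins the ratios of a gene, and dotted lines mark 1.5-fold. Nsdhl, Ebp, Acly and Fasn lie beyond the right line at both stiffnesses, and Idi1 at 12 kPa lies beyond the left one.

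The effect of stiffness was examined as the ratio of 12 to 0.5 kPa within each population, with the 1.1-fold threshold of the study. In control NPCs, 5 of the 33 members (15.2%; Dhcr7, Sc5d, Elovl6, Insig1 and Hsd17b7) were higher at 12 kPa, where 17.9% of the included genes were, and 2 (6.06%; Abca1 and Srebf1) were lower, where 16.9% were. In Srf-knockdown NPCs, 2 (6.06%; Abca1 and Npc1) were higher, beside 17.6%, and 2 (6.06%; Nsdhl and Scd1) were lower, beside 13%. No member was higher or lower in both populations, whereas 5.1% and 3.24% of the included genes were. The median log2 ratio was 0.05 in control NPCs and -0.05 after knockdown, beside 0.00305 and 0.0064 over all included genes. Of the members past the threshold, Insig1 and Hsd17b7 in control and Nsdhl in Srf-knockdown NPCs lay within 1 counting SE of it. Some members short of the threshold lay as near, such as Acat2 in control and Scap in Srf-knockdown NPCs. The sign was the same in both populations for 9 of the 33 members and for 5474 of the 10489 included genes. Across the members r was -0.56 and rho -0.35, beside 0.0689 and 0.0762 across all included genes. Abca1 had the largest ratio of the members in each population (log2 -0.62 and 0.33), and r without it is not given. The same 4 libraries give the stiffness and the knockdown ratios, so a member that stands apart in 1 library does so in a comparison of each kind, and differences between the populations in their stiffness ratios were not tested.

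**Figure D3:**
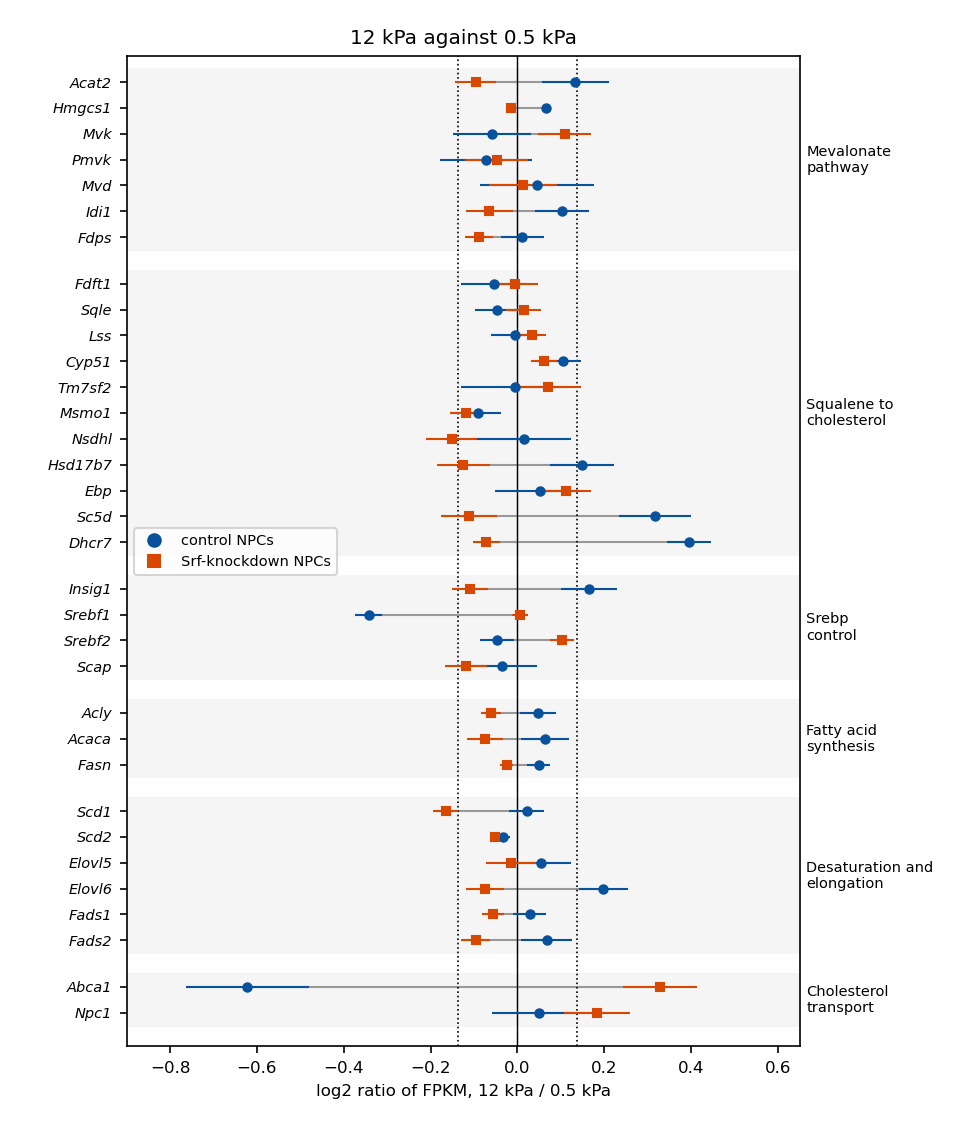
Log2 ratio of FPKM at 12 to 0.5 kPa for each member, in control (circles) and Srf-knockdown NPCs (squares), with 95% intervals of counting error as bars and dotted lines at 1.1-fold. Most members lie between the dotted lines, and Sc5d, Dhcr7, Srebf1 and Abca1 are those whose control ratio lies farthest from 0.

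The mevalonate pathway turns acetyl-CoA into the isoprenoid farnesyl diphosphate. Its 7 members summed to 613 and 626 FPKM in control and 664 and 642 FPKM in Srf-knockdown NPCs at 0.5 and 12 kPa, 1.08-fold and 1.03-fold with knockdown. Fdps, the synthase of farnesyl diphosphate and the highest of them, was 239, 240.5, 283 and 266 FPKM, with a log2 ratio of 0.25 ± 0.021 and 0.14 ± 0.022 with knockdown at 0.5 and 12 kPa (counting SE here and below). The lowest was Mvd, which decarboxylates mevalonate diphosphate, at 22.2, 22.9, 32.3 and 32.6 FPKM, and both Srf-knockdown libraries were above both control libraries without reaching 1.5-fold (log2 0.54 ± 0.055 and 0.51 ± 0.055). Centred on genes of like GC content, these ratios of Mvd were 0.36 and 0.22. Acat2, the cytosolic thiolase that starts the pathway, was 47.7, 52.4, 69.2 and 64.8 FPKM, with log2 ratios of 0.54 and 0.31. It has a close copy, Acat3, at 28.1 to 30.2 FPKM, so that the split of reads between them is uncertain. The ratios of the group went both ways: Idi1, which isomerises isopentenyl diphosphate and is singled out here after its values were seen, was 55.8, 60.0, 38.8 and 37.1 FPKM, with a log2 ratio of -0.52 ± 0.03 and -0.69 ± 0.03. It was the only member lower by more than 1.5-fold in any knockdown comparison, and it lies on chromosome 13 at 8885606 to 8892396 (RefSeq on GRCm38.p6, as all positions here). Hmgcs1, which makes HMG-CoA and whose promoter holds the sterol element shown above, was 141, 147, 129.7 and 128 FPKM (log2 -0.12 and -0.20, with no counting error because no transcript was matched). Mvk and Pmvk, the kinases of mevalonate and of its phosphate, had knockdown ratios between 0.02 and 0.19. With GC centring these ratios turned in sign, to -0.15 and -0.10 for Mvk and -0.06 and -0.14 for Pmvk at 0.5 and 12 kPa. No member of this group passed 1.1-fold with stiffness in either population, though Acat2 in control NPCs fell short by less than its counting SE (log2 0.13 ± 0.039).

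On the way through squalene to cholesterol, 11 members make squalene, turn it into the ring system and then strip methyl groups and move double bonds. Nsdhl, a sterol dehydrogenase that works in removing the methyl groups at carbon 4 and lies on chromosome X at 72918521 to 72958528, was 25.9, 26.1, 47.7 and 42.9 FPKM. The Srf-knockdown libraries were above both control libraries, by 1.84 and 1.64 times at 0.5 and 12 kPa (log2 0.88 ± 0.044 and 0.72 ± 0.046), and the 0.5 kPa value was the largest knockdown ratio among the members there. Ebp, the sterol isomerase that moves the double bond of ring B, lies on chromosome X at 8185329 to 8193512 and was 35.9, 37.2, 55.7 and 60.2 FPKM. Again both Srf-knockdown libraries stood above both controls, by 1.55 and 1.62 times (log2 0.63 ± 0.043 and 0.69 ± 0.043). The partners of Nsdhl in the same demethylation differed from it: Msmo1, the oxidase before it and the highest of the group, was 114, 107, 127 and 117 FPKM (log2 0.15 and 0.12), and Hsd17b7, the reductase after it and the lowest, was 23.9, 26.5, 19.9 and 18.2 FPKM (log2 -0.26 ± 0.035 and -0.54 ± 0.034).

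Dhcr7, the enzyme of the last step on a common route to cholesterol, was 78.4, 103, 128 and 122 FPKM. The control library at 0.5 kPa was below the other 3. It was therefore higher at 12 kPa in control NPCs (log2 0.40 ± 0.026) but not in Srf-knockdown NPCs (-0.07 ± 0.016), and its knockdown ratio was 0.71 ± 0.022 at 0.5 kPa and 0.24 ± 0.021 at 12 kPa. Sc5d, the desaturase just before it, was 39.0, 48.6, 36.9 and 34.1 FPKM. Here the control library at 12 kPa was above the other 3, with a log2 stiffness ratio of 0.32 ± 0.042, compared with -0.11 ± 0.033 under knockdown. Sqle, the epoxidase of squalene, had log2 knockdown ratios of -0.38 and -0.32, while Lss, which closes the rings, had 0.26 and 0.30, and Tm7sf2, a sterol reductase, 0.35 and 0.43. The 2 remaining members, Fdft1, the squalene synthase, and Cyp51, the first demethylase, lay between -0.01 and 0.08. The summed level of the group was 618 and 651 FPKM in control and 715 and 702 FPKM in Srf-knockdown NPCs. Fdft1 overlaps an end of Ctsb by 774 annotated bases and Tm7sf2 overlaps Vps51 by 9, and whether reads were counted by strand is not given in the sources used here.

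Among the controls of the Srebp factors, the gene of the lipogenic factor stood apart from that of the sterol factor. Srebf1, which encodes Srebp1, was 181, 143, 222 and 222 FPKM. The control library at 12 kPa was the lowest, and both Srf-knockdown libraries were above both controls. Srebf1 was thus lower at 12 kPa in control NPCs (log2 -0.34 ± 0.016) and not in Srf-knockdown NPCs (0.01 ± 0.0094), and its knockdown ratio was 0.29 ± 0.012 at 0.5 kPa and 0.64 ± 0.014 at 12 kPa, past 1.5-fold only at 12 kPa. Srebf2, which encodes Srebp2, was 83.8, 81.1, 78.4 and 84.2 FPKM, and its 4 log2 ratios lay between -0.09 and 0.10. Centred on genes of like GC content, however, its knockdown ratios were -0.27 and -0.24, lower than before at 0.5 kPa and turned in sign at 12 kPa. Scap, the escort of both factors, was 23.6, 23.0, 34.4 and 31.7 FPKM and was above both controls in both Srf-knockdown libraries, short of 1.5-fold (log2 0.55 ± 0.033 and 0.46 ± 0.035). Insig1, which retains the escort and is itself a target of the factors, was 56.0, 62.7, 72.8 and 67.5 FPKM. Its lowest value was that of control NPCs at 0.5 kPa, as for Dhcr7, with a log2 stiffness ratio of 0.17 ± 0.033 in the controls, compared with -0.11 ± 0.021 after knockdown. With GC centring the knockdown ratios of Srebf1 fell to 0.12 and 0.31 and those of Scap to 0.37 and 0.18. Those of Insig1 rose from 0.38 and 0.11 to 0.41 and 0.18. The gene of Srebf1 overlaps Rai1, at 28.1 to 34.4 FPKM, by 114 bases. The files hold 1 value a gene, so that the Srebp1a and Srebp1c transcripts were not told apart, and the processed form of the proteins was not measured.

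The 3 genes of fatty acid synthesis summed to 188 and 195 FPKM in control and 302 and 293 FPKM in Srf-knockdown NPCs, and the difference came from 2 of them. Acly, which splits citrate to supply cytosolic acetyl-CoA, was 83.4, 86.2, 141 and 135 FPKM (chromosome 11, 100476352 to 100528000). Fasn, the synthase that builds palmitate, was 84.0, 86.9, 141 and 139 FPKM (chromosome 11, 120805958 to 120825166). The levels of the pair were nearly equal in each library, and in both genes the Srf-knockdown libraries were clear of the controls: the log2 ratio of Acly was 0.75 ± 0.017 and 0.65 ± 0.017, and that of Fasn 0.75 ± 0.011 and 0.68 ± 0.011. Acaca, the carboxylase that works between them and makes malonyl-CoA, was 20.6, 21.5, 19.99 and 19.0 FPKM, with log2 ratios of -0.04 ± 0.025 and -0.18 ± 0.025. With stiffness all 3 genes had log2 ratios between 0.05 and 0.06 in control NPCs and between -0.07 and -0.02 after knockdown, within 1.1-fold. Of Acaca, 10 bases overlap Tada2a, and the 19116 bases shared with Gm11437 bring little, since that gene was at 0.0399 FPKM or below.

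Desaturation and elongation shape the fatty acids made or taken up, and here related genes differed. Fads2, the delta-6 desaturase of polyunsaturated fatty acids, was 127, 134, 208 and 195 FPKM, and its log2 knockdown ratio was 0.71 ± 0.024 and 0.54 ± 0.025, past 1.5-fold at 0.5 kPa. Its neighbour Fads1, the delta-5 desaturase, was 127, 129.8, 141 and 136 FPKM, with ratios of 0.15 ± 0.017 and 0.07 ± 0.017. The paralogs were level with each other in the control libraries and apart in the Srf-knockdown libraries. Elovl5, which lengthens polyunsaturated chains, was 48.0, 49.8, 35.0 and 34.7 FPKM, with ratios of -0.45 ± 0.033 and -0.52 ± 0.032, so that this partner of Fads2 lay on the other side of 0. Elovl6, the lowest of the group, which lengthens palmitate, was 31.2, 35.8, 29.3 and 27.8 FPKM. Its control library at 12 kPa was the highest, which gave a log2 stiffness ratio of 0.20 ± 0.029, beside -0.07 ± 0.022 under knockdown. Scd1, the desaturase that is best known as a target of Srebp1c and LXR, was 83.1, 84.4, 85.8 and 76.6 FPKM. Its lowest library was that of Srf-knockdown NPCs at 12 kPa, with a log2 stiffness ratio of -0.16 ± 0.014 there and of 0.02 ± 0.02 in the controls. Scd2, its paralog of brain, was the higher of them in each library and varied least of all members, by 1.04 times between the highest and lowest library, while the other paralogs Scd3 and Scd4 stayed at 0.237 FPKM or below.

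The 2 transport genes were the members with the lowest levels. Abca1, a target of LXR that carries cholesterol out of the cell, lies on chromosome 4 at 53030789 to 53159988. The control library at 12 kPa was the lowest of the values given above and the Srf-knockdown library at 12 kPa the highest, while both libraries at 0.5 kPa were nearly equal. Its log2 stiffness ratio in control NPCs, -0.62 ± 0.072, was opposite in sign to that after knockdown, 0.33 ± 0.044, and the knockdown ratio was -0.02 ± 0.055 at 0.5 kPa and 0.93 ± 0.064 at 12 kPa. These were the largest ratios among the members in both stiffness comparisons and in the knockdown at 12 kPa, at the lowest read counts. Npc1, which lets cholesterol out of lysosomes, was 10.3, 10.6, 9.89 and 11.2 FPKM, and was higher at 12 kPa in Srf-knockdown NPCs (log2 0.18 ± 0.039).

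The GC content of the transcript moved with the ratios. Over all included genes the median log2 knockdown ratio ran from -0.18 in the first decile of GC content up to 0.22 in the last for 0.5 kPa, and from -0.28 up to 0.35 for 12 kPa. Over 32 members with a matched transcript, which share the 4 libraries, rho between GC content and ratio was 0.49 at 0.5 kPa and 0.56 at 12 kPa (0.265 and 0.411 over all genes), and the members' median GC content, 50.1%, was that of the included genes, 50.2%. The stiffness ratios also ran with GC content. Over all included genes their median went from 0.03 in the first decile to -0.04 in the last in control NPCs. In Srf-knockdown NPCs it went from -0.06 to 0.10. For the stiffness ratios in control and Srf-knockdown NPCs, rho was -0.128 and 0.340 over all genes and -0.42 and 0.38 over the 32 members. With each knockdown ratio centred on genes of like GC content, Nsdhl (log2 0.96 and 0.82) and Ebp (0.65 and 0.72) stayed beyond 1.5-fold at both stiffnesses. Acly (0.65 and 0.56) stayed so at 0.5 kPa, and Fasn (0.57 and 0.39), Fads2 at 0.5 kPa (0.52), Srebf1 at 12 kPa (0.31) and Idi1 at 12 kPa (-0.43) fell short, while Abca1 at 12 kPa was 1.02. At the 1.1-fold threshold, 12 of the 32 members were then higher at both stiffnesses and 5 lower (Elovl5, Hsd17b7, Idi1, Sqle and Srebf2), beside 27.2% and 28.2% of the included genes. Fasn and Srebf1 have GC-rich transcripts (57.4% and 58.4%), and those of Nsdhl (45.8%) and Idi1 (41.5%) are poorer in GC than the median. Whether the trend arose in library preparation or in the cells was not tested.

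**Figure D4:**
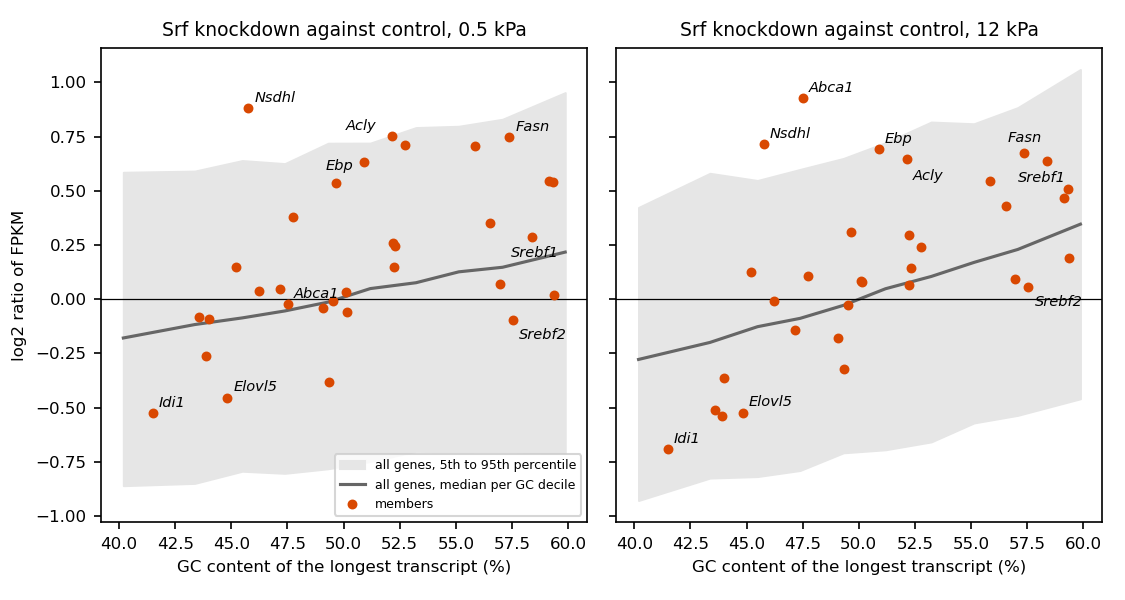
Log2 ratio of FPKM in Srf-knockdown to control NPCs at 0.5 kPa (left) and 12 kPa (right) against the GC content of the longest transcript, for 32 members (orange points). The grey line is the median and the band the 5th to 95th percentile of all included genes in deciles of GC content. The line rises from left to right in both panels, and Nsdhl in both, as well as Abca1 at 12 kPa, lies above the band.

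Of 53 other genes of these pathways, 47 were above the minimum, and Nr1h3, Abcg1, Abcg4, Elovl7, Acacb and Ppara were not. With knockdown, 7 of the 47 were higher and 4 lower by more than 1.5-fold at 0.5 kPa, and 6 and 4 at 12 kPa, with a median log2 ratio of 0.00137 and 0.01. With stiffness, 7 were higher and 7 lower by more than 1.1-fold in control, and 6 and 4 in Srf-knockdown NPCs. These counts can be read beside the shares of all included genes above. Among 10 other genes that Srebp factors are known to regulate, 3 were higher and 1 lower with knockdown at 0.5 kPa, and 2 and 1 at 12 kPa. Among 7 genes of Srebp processing and degradation 1 was higher and 1 lower at 0.5 kPa and 0 at 12 kPa. Of 8 measured genes of fatty acid oxidation, 1 was higher at 0.5 kPa and 2 at 12 kPa, and 0 were lower. Of 8 measured genes of sterol uptake, storage and lysosomal release, 1 was higher at both, and 1 was lower at 12 kPa. Of 6 measured genes of LXR and sterol export, 1 was higher at both stiffnesses, and of 8 other elongation and desaturation genes 0 were higher and 2 lower at both.

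Beyond 2-fold at both stiffnesses were 3 of these genes. Mid1ip1, which promotes the assembly of acetyl-CoA carboxylase into active filaments, was 7.12, 5.72, 14.9 and 13.9 FPKM in the 4 libraries in the same order, a log2 ratio of 1.07 and 1.28 with knockdown. Vldlr, a lipoprotein receptor, was 4.24, 3.83, 9.55 and 10.7 FPKM (1.17 and 1.48). Both were thus higher where Acly and Fasn were higher, and Acaca, whose product Mid1ip1 acts on, was not. Hacd1, a dehydratase of fatty acid elongation, was 61.9, 62.4, 26.4 and 26.2 FPKM (-1.23 and -1.25), and like Elovl5 was lower in both Srf-knockdown libraries. None of the other pathway genes passed 1.5-fold with stiffness.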

How the data were processed

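Poly(A) RNA of 4 cultures, 1 library for each condition, was sequenced from a stranded single-end library kit. Per the submitters' processing notes and the study's methods, the authors trimmed reads with cutadapt 1.9.1, mapped them to mm10 with TopHat2 2.1.0, Bowtie2 2.2.8 and the GENCODE M14 annotation, kept reads of a mapping quality of at least 20, and deposited FPKM values computed for each gene with Cufflinks 2.2.1, called RPKM in the methods. Groups were taken from the sample labels. Symbols listed more than once (63) were left out of the 21997 rows, and genes above 2 FPKM in all libraries were included. Log2 ratios were computed without a pseudocount or rescaling, and described by counts beyond 1.1-fold (stiffness) or 1.5-fold (knockdown), a threshold chosen here.

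Depth was estimated from genes under 0.1 FPKM and detected in at least 3 libraries, of which 587 of 1101 (53.3%) fell on whole-read steps within 5%, and 270 with a transcript over 1000 bases gave the reads. By this estimate 3 reads on a transcript of 2000 bases are worth 0.0267 to 0.0691 FPKM. Counting SEs took the reads as Poisson counts and rest on symbol-matched transcript lengths (98.3% of included genes, 32 of 33 members, not Hmgcs1). The estimate was also run on simulated Poisson reads drawn with the same transcript lengths that it assumes. That simulation cannot test whether these assumptions hold in the 4 libraries.

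The members, lists and thresholds were chosen with earlier results of these data known. Values in every library were given for the Srebp controls, the highest and lowest gene of each role, paralogs, genes beyond 1.5-fold the same way in both knockdown comparisons, beyond 1.2-fold in a stiffness comparison or beyond 1.1-fold the same way in both. These are 23 members, and Acat2, Hmgcs1, Idi1 and, by its ratios only, Sqle were added after their values were seen. Other pathway genes were named beyond 2-fold in both knockdown comparisons or 1.5-fold with stiffness. Alternatives were a minimum of 1 or 5 FPKM, of 2 FPKM in the compared libraries only or none, a pseudocount of 1, centring on the median, scaling to the 75th percentile, centring within 50 bins of GC content and thresholds of 1.2, 1.5 and 2-fold. Calculations used pandas 2.3.3, numpy 2.4.6 and scipy 1.17.1 in Python 3.11.15, and plots matplotlib 3.10.9.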

Additional observations from a re-analysis of the deposited data

Results flagged for a closer look

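Abca1, the cholesterol exporter, was lower at 12 kPa than at 0.5 kPa in control NPCs (log2 -0.62) and higher in Srf-knockdown NPCs (log2 0.33). It is listed because these ratios point in opposite directions, and they differ by -0.95 (control minus Srf knockdown). This difference was not tested, since there is 1 library a condition, and Abca1 had the lowest level of the members, 2.52 to 4.80 FPKM.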

How the results depend on the processing

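No paired analysis was possible because there is a single library per condition, with no replicate numbers. Over the alternatives, 94 values of the main comparisons held and 18 counts did not, where a count held within 1.5 times and a median within the 95% counting interval of a typical member (the median over members). The medians of the members nonetheless moved by over 1.5 times in 2 cases, from 0.05 to 0.03 for stiffness in control NPCs with GC centring and from 0.07 to 0.11 for knockdown at 0.5 kPa with a minimum of 5 FPKM, and kept their sign. No named member's ratio beyond the threshold turned its sign. Among ratios of the named members within the threshold, GC centring turned those of Srebf2 (0.05 to -0.24) and Fads1 (0.07 to -0.02) with knockdown at 12 kPa, of Sc5d, Acaca, Scd2, Elovl6 and Abca1 with knockdown at 0.5 kPa, all to between 0.00214 and 0.03, and of Mvd (0.01 to -0.08), Srebf1 (0.01 to -0.09) and Elovl5 (-0.01 to 0.01) with stiffness under knockdown. The Srebf1 ratio also turned, to no lower than -0.00273, with centring on the median and with 75th percentile scaling. Members outside this named set turned too with GC centring, such as Mvk and Pmvk with knockdown at both stiffnesses. With a minimum of 5 FPKM, 1 member was lower at 12 kPa in control NPCs and 1 higher in Srf-knockdown NPCs, since Abca1 was no longer included. With a threshold of 1.2-fold, 2 members were higher at 12 kPa in control NPCs, and 1 was higher and 0 were lower in Srf-knockdown NPCs. At that threshold 12 members were higher and 4 lower with knockdown at 0.5 kPa, and 12 and 6 at 12 kPa. With 1.5-fold, 0 members were higher and 1 was lower at 12 kPa in control NPCs, and 0 were higher or lower in Srf-knockdown NPCs. With 2-fold, 0 members were higher in either knockdown comparison and 0 were lower at 12 kPa. For the counts in this section no share over all included genes is given, so they cannot be set against that background. Centring within GC bins left 3 members higher and 0 lower with knockdown at 12 kPa, and it was the setting under which named members crossed the threshold: Nsdhl, Scap and Fads2 with stiffness under knockdown, Fasn and Fads2 with knockdown at 0.5 kPa, and Srebf1, Acly and Fasn at 12 kPa. The cause was not tested. Depth limits a member's ratio by its counting SE, at most 0.072 in the 32 members with a matched transcript, whereas the variation between cultures was not measured.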
